A study of Homo sapiens and Mus musculus with 13 samples.

Results

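The genes described here are 9 targets of the transcription factor NRF2, among them the chains of the iron store ferritin. They were chosen by name with earlier results of these data known, as were the gene lists below. Their counts beside the share of all genes are therefore a description. They are NQO1, HMOX1, GCLC, GCLM, TXNRD1, SRXN1, SLC7A11, FTL and FTH1 among 24523 human gene symbols, and the mouse genes of the same names (Ftl1 for FTL) among 55228 mouse symbols. All 9 were found in both tables, and all 9 passed the filter on low values, a mean of at least 0.5 FPKM (fragments per kilobase of gene length, scaled to library size). RNA-Seq was done on 7 lines of MDA-MB-231, a human triple-negative breast cancer cell line, and on 6 mammary tumors of mice. The question was how loss of TRIM11, a ubiquitin ligase, and of KDM5C, a histone H3 lysine demethylase, alters the transcriptome.

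Every cell line carried Cas9 and a lentiviral guide RNA under puromycin selection. Control (n = 1) had a guide against GFP. TRIM11-KD1 and TRIM11-KD2 had TRIM11 guide 1 or 2, and KDM5C-KD1 and KDM5C-KD2 had KDM5C guide 1 or 2. DKD1 and DKD2 were double knockdowns that combined TRIM11 guide 1 or 2 with KDM5C guide 2. The 2 lines of a knockdown therefore differ in guide, and p-values measure only the spread between such lines. The tumors came from 3 wild-type (WT) and 3 Trim11+/- females aged 3 months. All 6 carried the MMTV-PyVT transgene, in which a viral promoter active in mammary epithelium drives the polyoma middle T oncogene, on a hybrid of C57BL/6N and FVB/N. The Trim11 allele lacked exons 2 to 6.

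The labels were checked on the targeted genes. KDM5C was at 30.3 FPKM in Control, 29.8 and 28.4 in TRIM11-KD, and between 18.8 and 22.7 in the 4 lines with a KDM5C guide. TRIM11 was at 12.6 FPKM in Control, 13.4 in TRIM11-KD1, 10.6 in TRIM11-KD2, 16.1 in DKD1 and 9.38 in DKD2, so its mRNA was not below Control in the 2 lines labelled with TRIM11 guide 1. A guide that disrupts the protein can leave the mRNA in place, and directions drawn from those 2 libraries rest on their labels. Trim11 had a ratio of 0.626 in Trim11+/- against WT tumors. MDA-MB-231 was matched by VIM at 1038 FPKM or more and CD44 at 188.4 or more, with PGR listed at 0 and ESR1 at no more than 0.0234. Of the other markers looked at, ERBB2 was at 17.8 to 23.7 FPKM and CDH1 at 0.615 to 1.98. EPCAM was at 4.03 FPKM in Control and up to 12.3 in the knockdown lines. Recovered library totals of the tumors ran from 8793199 to 11117125 reads, while the depth of the cell line libraries is unknown.

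NRF2, encoded by NFE2L2, is a stress-activated transcription factor that KEAP1 holds at a low level by steering it to degradation. Once released by oxidants or electrophiles it pairs with small MAF proteins at antioxidant response elements, where BACH1 acts as a repressor, and switches on genes for quinone detoxification, haem breakdown, glutathione synthesis, the thioredoxin system and iron storage. Ferritin is under a further layer of control, since iron regulatory proteins bind a hairpin in the 5' end of both ferritin mRNAs and block their translation when iron is scarce.

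Sequence matches to the elements of these controls are shown for the members whose window held them. RefSeq promoters of 300 bases (GRCh38.p14) were given for 6 members, NQO1, GCLC, GCLM, TXNRD1, SRXN1 and FTL. The core of the antioxidant response element was searched on both strands as TGACNNNGC, without excluding overlap with other motifs. It was found in GCLM and in both listed promoters of TXNRD1, and 13.3% of all 35116 promoters held it. The promoters cover 250 bases before and 50 after the start, so an element beyond them would have been missed. The windows below are read along the gene, with the core, or its reverse complement where it lies on the opposite strand, in capitals. The GCLM core starts 34 bases before the transcription start (chr1:93909441-93909479, minus strand). The first TXNRD1 promoter held 2 cores. The one shown starts 99 bases before the start (chr12:104215665-104215703, plus strand), and the other, on the opposite strand, starts 8 bases before it, runs to the start itself and is not shown. The single core of the second promoter starts 102 bases before the start (chr12:104286915-104286953, plus strand).
GCLM: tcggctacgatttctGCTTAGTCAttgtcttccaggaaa
TXNRD1, first promoter: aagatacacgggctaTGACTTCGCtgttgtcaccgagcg
TXNRD1, second promoter: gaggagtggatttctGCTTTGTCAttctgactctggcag
These letters are a description of the windows, and binding was not measured in these data.

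The apical loop of the iron responsive element was searched as CAGTGN in the first 100 bases of the 5' untranslated region of FTL, Ftl1 and Fth1, on the transcript strand. The search returned no loop for Fth1, and human FTH1 was not searched. An element beyond these 100 bases would have been missed. The loop was present at base 39 of the FTL transcript (hg19, chr19:49468592-49468621, plus strand) and at base 90 of Ftl1 (mm10, chr7:45459778-45459807, minus strand). Of all such windows, 11.5% of 10782 in human and 12.6% of 12597 in mouse held it. The 30 bases around it are shown with the loop in capitals, to compare the element between the species measured.
FTL: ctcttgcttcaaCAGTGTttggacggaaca
Ftl1: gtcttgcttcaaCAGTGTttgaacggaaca

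Levels among members spanned a wide range. In Control cells FTL stood first at 3125 FPKM, then FTH1 at 863.5 and TXNRD1 at 269.3, and SLC7A11 came last at 6.65. Over the 7 lines FTH1 and TXNRD1 were above 99.7% and 98.8% of the 12636 genes analysed, while GCLC and SLC7A11 were near the middle, above 49.7% and 46.6%. In WT tumors Ftl1 and Fth1 again led, at a mean of 449.6 and 413.7 FPKM, and Slc7a11 was again last at 0.558. TXNRD1 and SRXN1 ranked 3 and 4 of 9 in Control cells, and their mouse counterparts 4 and 8 in WT tumors. The 2 tables were normalized separately, so levels are ranked only within each.

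Control was low throughout. It was the lowest of the 7 lines for 6 of 9 members, compared with 13.9% of all genes. Control was also among the lowest 2 lines for all 9, a count for which the share of all genes was not computed. All 6 knockdown lines were above Control for 6 members (NQO1, HMOX1, GCLC, TXNRD1, SLC7A11 and FTH1), compared with 13.6% of all genes. Since Control is a single library, a low value there enters every ratio to it. For ratios to Control a gene was counted, with no test, where its 2 lines lay on the same side of Control by a factor of 1.5 or more.

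**Figure D1:**
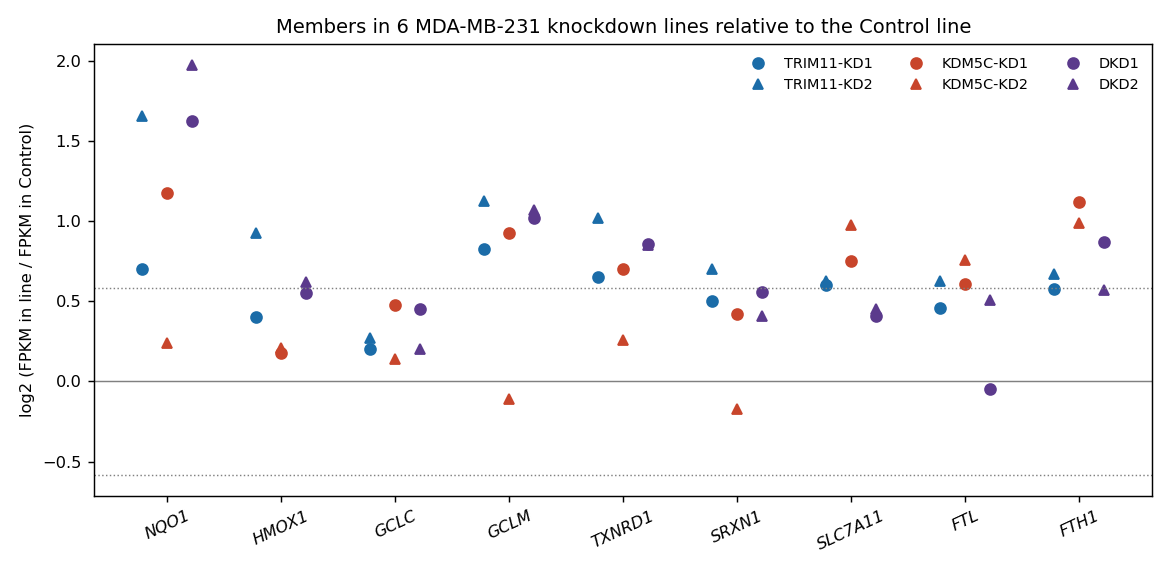
The log2 ratio of FPKM in each of the 6 knockdown lines to the Control line is plotted for the 9 members, with circles for line 1 and triangles for line 2 of TRIM11-KD (blue), KDM5C-KD (red) and DKD (purple). Dotted lines mark 1.5 times above and below Control, and the red triangles of KDM5C-KD2 sit lowest for NQO1, GCLC, GCLM, TXNRD1 and SRXN1 but highest for SLC7A11 and FTL.

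In TRIM11-KD, 4 of 9 members exceeded Control 1.5 times or more in each line (NQO1, GCLM, TXNRD1 and SLC7A11), compared with 3.25% of all 12636 genes. In KDM5C-KD the count was 3 (SLC7A11, FTL and FTH1), compared with 5.22% of all genes. In DKD it was 3 (NQO1, GCLM and TXNRD1), compared with 5.71%. No member was 1.5 times below Control in both lines of TRIM11-KD, KDM5C-KD or DKD, where 2.58%, 3.97% and 4.87% of all genes were. The median log2 ratio to Control over the members was 0.62 in TRIM11-KD, 0.48 in KDM5C-KD and 0.59 in DKD, and over all genes it was between -0.02 and -0.01. The 3 counts share the Control library. A count over a single line is also higher for all genes, and with TRIM11-KD1 left out it was 8 members and 8.71% of all genes in TRIM11-KD, and with KDM5C-KD2 left out 6 members and 8.15% in KDM5C-KD. At a fold of 2 it was 0 members in TRIM11-KD and 0 in KDM5C-KD, where 1.12% and 2.07% of all genes passed, and 2 members in DKD, where 2.50% did.

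The knockdowns were also set against Control in limma on log2(FPKM + 1), a scale that understates changes of low genes, with 4 groups over the 7 lines, a fit added after the data were seen. Its spread comes from the 3 knockdowns, and Control is assumed to vary as they do. No member passed the Benjamini-Hochberg adjustment, which 0.0158% of all genes did in each comparison. At an unadjusted p under 0.05 the members that were higher numbered 4 in TRIM11-KD (HMOX1, TXNRD1, SLC7A11 and FTH1), 3 in KDM5C-KD (SLC7A11, FTL and FTH1) and 4 in DKD (NQO1, GCLM, TXNRD1 and FTH1), compared with 1.77%, 4.73% and 4.99% of all genes in that direction. None was lower, and the adjusted p by limma was at least 0.435 for every member. The largest differences were 1.77 (SE 0.49) for NQO1 in DKD and 1.15 (SE 0.49) for NQO1 in TRIM11-KD, of which the latter was not under the unadjusted threshold, and 1.06 (SE 0.19) for FTH1 in KDM5C-KD.

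NQO1 (ENSG00000181019, hg19 chr16:69740899-69760571) encodes a quinone reductase and is a classic readout of NRF2. It was at 29.2 FPKM in Control, 47.4 and 92.0 in TRIM11-KD, 66.2 and 34.6 in KDM5C-KD, and 90.5 and 115.1 in DKD, always with line 1 before line 2. Both DKD lines were therefore more than 3 times Control (3.10 and 3.95 times). The lines of TRIM11-KD and of KDM5C-KD differed widely between their guides, at 1.62 and 3.15 times Control and at 2.27 and 1.18 times Control.

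HMOX1 (ENSG00000100292, chr22:35776354-35790207) encodes haem oxygenase, which opens the haem ring and frees its iron. Its FPKM was 8.22 in Control, 10.9 and 15.6 in TRIM11-KD, 9.33 and 9.51 in KDM5C-KD, and 12.1 and 12.7 in DKD. Every line with a TRIM11 guide was above every line without one, a separation that HMOX1 alone of the 9 members showed and that 4.2% of all genes showed.

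The glutathione synthesis genes had unequal ranges. GCLC (ENSG00000001084, chr6:53362139-53481768) encodes the catalytic and GCLM (ENSG00000023909, chr1:94350755-94375012) the modifier subunit of glutamate-cysteine ligase, the rate-limiting enzyme. GCLM was at 11.3 FPKM in Control, 20.1 and 24.7 in TRIM11-KD, 21.5 and 10.5 in KDM5C-KD, and 22.9 and 23.7 in DKD, so Control and KDM5C-KD2 stood well below the other 5 lines. GCLC stayed within 9.22 FPKM in Control and 12.9 in KDM5C-KD1, and the ratio of the highest to the lowest line was 1.40. The ratio of GCLC to GCLM was 0.819 in Control and 0.969 in KDM5C-KD2, and between 0.448 and 0.598 in the other lines.

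TXNRD1 (ENSG00000198431, chr12:104609557-104744085) encodes the cytosolic thioredoxin reductase and SRXN1 (ENSG00000271303, chr20:627259-633844) sulfiredoxin, which repairs overoxidized peroxiredoxins. TXNRD1 was at 269.3 FPKM in Control, 423.7 and 546.1 in TRIM11-KD, 437.6 and 322.0 in KDM5C-KD, and 487.7 and 484.1 in DKD. SRXN1 was at 44.8 FPKM in Control, 63.1 and 72.8 in TRIM11-KD, 60.1 and 39.8 in KDM5C-KD, and 66.2 and 59.5 in DKD. Control and KDM5C-KD2 were the 2 lowest lines for both genes, as for NQO1 and GCLM. The libraries were not stranded, and reads of EID3 within TXNRD1 and of an overlapping gene at SRXN1 could not be separated by strand.

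SLC7A11 (ENSG00000151012, chr4:139085251-139163503) encodes the cystine importer that feeds glutathione synthesis and is a target of ATF4 as well as of NRF2. It was at 6.65 FPKM in Control, 10.1 and 10.3 in TRIM11-KD, 11.2 and 13.1 in KDM5C-KD, and 8.83 and 9.09 in DKD. Its order differed from that of NQO1, with KDM5C-KD highest and DKD below both single knockdowns. The antisense gene SLC7A11-AS1 overlaps it, and its reads could not be told apart.

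The ferritin genes, like SLC7A11, were highest in KDM5C-KD. FTL (ENSG00000087086, chr19:49468566-49470136) encodes the light chain, which helps to form the iron core, and was at 3125 FPKM in Control, 4292 and 4848 in TRIM11-KD, 4776 and 5280 in KDM5C-KD, and 3016 and 4442 in DKD. FTH1 (ENSG00000167996, chr11:61727190-61735106) encodes the heavy chain, which oxidizes iron for storage, and was at 863.5 FPKM in Control, 1288 and 1371 in TRIM11-KD, 1881 and 1721 in KDM5C-KD, and 1576 and 1281 in DKD. DKD1 was below Control for FTL alone of the 9 members. The ratio of FTH1 to FTL was 0.523 in DKD1 and between 0.276 and 0.394 in the other 6 lines. Named copies of the ferritin genes in the human table summed to at most 0.0245% of FTH1 and were listed at 0 for FTL.

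**Figure D2:**
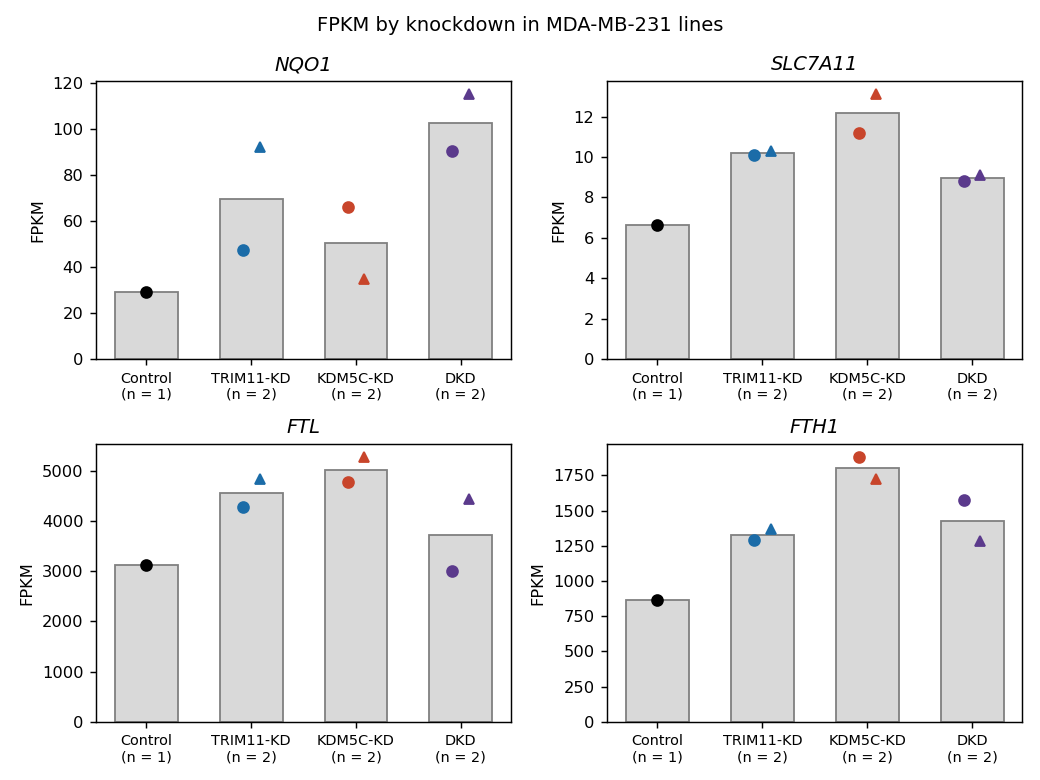
FPKM of NQO1, SLC7A11, FTL and FTH1 is plotted by knockdown in MDA-MB-231 lines, with bars for the mean, circles for line 1 and triangles for line 2 (Control, n = 1, and n = 2 for the rest). NQO1 is highest in DKD (mean 102.8 FPKM), whereas SLC7A11, FTL and FTH1 are highest in KDM5C-KD (means 12.2, 5028 and 1801 FPKM).

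To ask how the members differ with each guide, both guides were fitted as additive terms over the 7 lines by limma on log2(FPKM + 1). With a TRIM11 guide, 5 of 9 members (NQO1, HMOX1, GCLM, TXNRD1 and SRXN1) were higher at an unadjusted p under 0.05, compared with 5.19% of all 12636 genes in that direction. None passed the Benjamini-Hochberg adjustment by limma, at an adjusted p of 0.448 for all 5, nor did any other gene (0.0% of 12636). The log2 difference was 1.11 (SE 0.29) for NQO1, 0.73 (SE 0.23) for GCLM, 0.56 (SE 0.16) for TXNRD1, 0.46 (SE 0.14) for HMOX1 and 0.45 (SE 0.15) for SRXN1. GCLC, SLC7A11, FTL and FTH1 differed by between -0.06 and 0.09, each less than its SE. The median over the members was 0.45, and over all genes -0.01.

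Without Control the term becomes the difference between DKD and KDM5C-KD, and of these 5 genes NQO1 alone remained under the unadjusted threshold. The differences of the 5 stayed positive, at 1.08 (SE 0.40) for NQO1, 0.60 (SE 0.31) for GCLM, 0.37 (SE 0.19) for TXNRD1, 0.36 (SE 0.18) for HMOX1 and 0.35 (SE 0.21) for SRXN1. SLC7A11, which was at -0.02 with Control, was then lower (-0.40, SE 0.13) and under the unadjusted threshold. FTL and FTH1 were then at -0.46 (SE 0.22) and -0.34 (SE 0.16). In the fit against Control, TRIM11-KD was at 0.55, 0.55 and 0.62 for SLC7A11, FTL and FTH1. Their additive terms near 0 thus combine differences of opposite sign. Over all 7 lines left out in turn the lowest differences of the 5 were 0.88 for NQO1, 0.52 for GCLM, 0.37 for TXNRD1, 0.36 for HMOX1 and 0.33 for SRXN1. Without both lines of TRIM11 guide 1, in which TRIM11 mRNA was not below Control, 4 of the 5 remained (NQO1, HMOX1, GCLM and TXNRD1), compared with 7.23% of all genes in that direction. In two-sided exact permutation tests of 4 lines against 3, in which the smallest possible p is 0.0571, HMOX1 reached 0.0571, and NQO1, GCLM, TXNRD1 and SRXN1 each gave 0.114.

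With a KDM5C guide no member passed the adjusted threshold (0.00791% of all genes did, a count of 1) and none passed the unadjusted threshold, which 11.1% of all genes did. The largest log2 differences were 0.65 (SE 0.29, adjusted p = 0.461 by limma) for NQO1 and 0.48 (SE 0.21, adjusted p = 0.455) for FTH1. The other 7 were between -0.02 and 0.21. The value for FTH1 rested on Control, since without that library it was 0.10 (SE 0.16), while NQO1 was at 0.62 (SE 0.40). NQO1 was lowest, at 0.42, without TRIM11-KD1. Without TRIM11-KD2 the count of members at an unadjusted p under 0.05 was 2 (NQO1 and FTH1), against 11.7% of all genes, and it was 1 without KDM5C-KD2 (NQO1, against 9.84%) or without DKD2 (FTH1, against 8.89%).

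**Figure D3:**
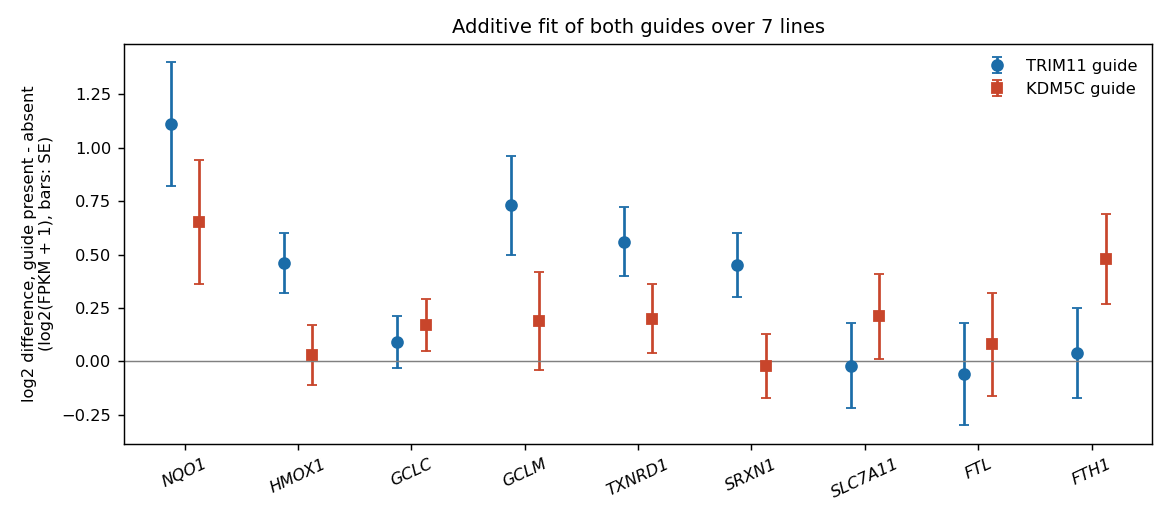
The log2 difference on the log2(FPKM + 1) scale between lines with and without a TRIM11 guide (blue circles) or a KDM5C guide (red squares) is plotted for the 9 members from the additive limma fit over 7 lines, with bars for the SE. NQO1, HMOX1, GCLM, TXNRD1 and SRXN1 lie between 0.45 and 1.11 for the TRIM11 guide, and SLC7A11, FTL and FTH1 lie near 0. For these last genes the term combines a higher level in TRIM11-KD than in Control with a lower level in DKD than in KDM5C-KD.

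An interaction term was added to see where the effects of both guides did not add up on the log scale. It was negative for SLC7A11 (-0.95, SE 0.21), FTL (-1.0, SE 0.35) and FTH1 (-0.96, SE 0.24), at an unadjusted p under 0.05 that 2.46% of all genes reached in that direction. After adjustment by limma p was 0.879 for each, and 0.0158% of genes (2 of 12636) passed. For the other 6 members it was between -0.46 and -0.08 with an SE of at least 0.26. This term uses Control as the only library without a guide against either gene.

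The DKD lines share KDM5C guide 2 with KDM5C-KD2, so they can also be set against that line. NQO1 was 2.62 and 3.33 times, GCLM 2.19 and 2.26 times and TXNRD1 1.51 and 1.5 times as high in DKD1 and DKD2 as in KDM5C-KD2, and 8.55% of all genes were at least 1.5 times above in both. SLC7A11 was at 0.673 and 0.693 times and FTL at 0.571 and 0.841 times the level in KDM5C-KD2, and no member was 1.5 times below it in both, as 6.43% of all genes were. Against the TRIM11-KD line with the same TRIM11 guide, no member was 1.5 times above or below in both pairs, compared with 2.26% and 2.42% of all genes. NQO1 came nearest, at 1.91 and 1.25 times.

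In limma over the 6 knockdown lines, which leaves Control out, no member passed the adjusted threshold in any of the 3 comparisons between knockdowns, and neither did any other gene (0.0% of 12636 in each). DKD exceeded KDM5C-KD in NQO1 by 1.08 on the log2 scale (SE 0.40, unadjusted p = 0.0360 and adjusted p = 0.403 by limma) and was lower in SLC7A11 (-0.40, SE 0.13, unadjusted p = 0.0239 and adjusted p = 0.388). At this unadjusted threshold 5.86% of all genes were higher and 5.80% lower. FTH1 was higher in KDM5C-KD than in TRIM11-KD (0.44, SE 0.16, unadjusted p = 0.0304 and adjusted p = 0.494), against 5.58% of all genes. Between DKD and TRIM11-KD no member reached the unadjusted threshold, which 7.03% of all genes did, and the differences were between -0.32 for FTL and 0.62 for NQO1. That comparison did not pair the lines that share a TRIM11 guide. With the replicate number as a block FTL reached the unadjusted threshold, as 12.2% of all genes did.

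KDM5C-KD2 and KDM5C-KD1 had a strong influence on these counts, for all genes as well as for the members. With a line left out its knockdown is a single line, assumed to vary like the other groups. Without KDM5C-KD1, 5 members differed between DKD and KDM5C-KD at an unadjusted p under 0.05 (NQO1, GCLM, TXNRD1, SRXN1 and SLC7A11) and 3 between KDM5C-KD and TRIM11-KD (GCLM, TXNRD1 and SRXN1), while the shares of all genes rose from 11.7% to 17.2% and from 9.82% to 17.0%. Without KDM5C-KD2 the counts were 0 and 0, and the shares of all genes were 4.01% and 3.43%. With single lines left out in turn, the log2 difference of DKD against KDM5C-KD ran from -0.49 to -0.19 for FTH1 and from -0.74 to -0.18 for FTL. That of DKD against TRIM11-KD ran from 0.15 to 1.09 for NQO1 and from -0.60 to -0.04 for FTL.

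Among the regulators of the pathway, NFE2L2 was at 42.8 FPKM in Control, 50.6 and 55.2 in TRIM11-KD, 53.6 and 37.5 in KDM5C-KD, and 54.9 and 53.2 in DKD, and KDM5C-KD2 was the lowest line, as it was for GCLM and SRXN1. Its log2 difference with a TRIM11 guide was 0.28 (SE 0.13, unadjusted p = 0.0688 and adjusted p = 0.498 by limma). KEAP1 was between 42.2 FPKM in KDM5C-KD2 and 57.5 in DKD1. BACH1 was at 25 FPKM in Control, 25.3 and 19.7 in TRIM11-KD, 21.1 and 18.3 in KDM5C-KD, and 16.0 and 16.3 in DKD, where both lines were at least 1.5 times below Control. Of the 10 regulators listed, none was 1.5 times from Control in TRIM11-KD or KDM5C-KD, and BACH1 alone was in DKD. At an unadjusted p under 0.05, BACH1 was lower with a KDM5C guide (-0.40, SE 0.11, unadjusted p = 0.00981 and adjusted p = 0.384 by limma), where 5.18% of all genes were lower, and lower in DKD than in TRIM11-KD. With a TRIM11 guide MAFG was higher and MAFK lower, against 5.19% and 5.48% of all genes. MAFG was also lower in KDM5C-KD than in TRIM11-KD, MAFK lower in DKD than in KDM5C-KD, and SQSTM1, an autophagy adaptor that binds KEAP1, lower in DKD than in either single knockdown. None passed the adjustment, and the list's median over the 8 comparisons of cell lines ran from -0.14 to 0.07.

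Of 21 other NRF2 targets analysed, 6 were higher and 0 lower with a TRIM11 guide at an unadjusted p under 0.05 (ABCC3, CBR1, EPHX1, TKT, TRIM16 and TXN), compared with 5.19% and 5.48% of all genes, and the median was 0.35. Against KDM5C-KD, 7 were higher and 0 lower in DKD, compared with 5.86% and 5.80% of all genes, also with a median of 0.35. Against Control, both lines were at least 1.5 times above for 2 in TRIM11-KD, 1 in KDM5C-KD and 5 in DKD, and ALDH3A1 was below in KDM5C-KD. ABCC3, an export pump for conjugates, was at 5.88 FPKM in Control, 9.90 and 10.7 in TRIM11-KD, 12.4 and 8.43 in KDM5C-KD, and 16.9 and 13.6 in DKD. OSGIN1, an oxidative stress response gene, was at 8.37 FPKM in Control and between 12.9 and 18.7 in the 6 knockdown lines. TRIM16, a relative of TRIM11, was at 23.9 FPKM in Control, 34.2 and 43.0 in TRIM11-KD, 34.1 and 15.9 in KDM5C-KD, and 43.6 and 45.6 in DKD, with KDM5C-KD2 and Control lowest, as for GCLM.

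The 4 aldo-keto reductases of the NRF2 response were all higher with a TRIM11 guide at an unadjusted p under 0.05, compared with 5.19% of all genes, with a median of 1.59, and none passed the adjustment. AKR1C3, which reduces steroids and prostaglandins, was at 29.5 FPKM in Control, 78.9 and 89.4 in TRIM11-KD, 29.2 and 0.435 in KDM5C-KD, and 77.6 and 85.6 in DKD. AKR1C1 was at 11.5 FPKM in Control, 32.5 and 20.4 in TRIM11-KD, 5.42 and 0.123 in KDM5C-KD, and 12.5 and 20.1 in DKD. These genes are close copies of each other, so the split of reads among them is uncertain.

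Of 15 iron handling genes analysed, between 0 and 1 were 1.5 times above Control in each knockdown and 1 was below in each, and the medians over the 8 comparisons of cell lines ran from -0.02 to 0.07. TFRC, the transferrin receptor, was at 58.6 FPKM in Control, 73.0 and 72.6 in TRIM11-KD, 88.2 and 74.8 in KDM5C-KD, and 77.8 and 49.0 in DKD. HFE, a partner of that receptor, was at 4.31 FPKM in Control and between 5.39 and 9.87 in the knockdown lines, with both DKD lines highest. SLC39A8, a metal ion importer, was at 13.9 FPKM in Control and between 4.85 and 9.53 in the knockdown lines. SLC40A1, the iron exporter ferroportin, was low, between 0.0691 and 1.56 FPKM. No gene of 8 in haem metabolism was 1.5 times from Control or past the unadjusted threshold, with medians from -0.20 to 0.10.

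In glutathione use and ferroptosis, CHAC1, which degrades glutathione, was 1.5 times below Control in all 3 knockdowns, and GLRX, glutaredoxin, in 2. GLRX was at 28.0 FPKM in Control, 26.0 and 22.1 in TRIM11-KD, 13.7 and 13.8 in KDM5C-KD, and 15.4 and 17.8 in DKD, low wherever a KDM5C guide was present (log2 difference -0.69, SE 0.13, adjusted p = 0.345 by limma). GPX4, which reduces lipid peroxides, was between 307.1 and 428.3 FPKM. SLC3A2, the partner chain of SLC7A11, was at 104.6 FPKM in Control, 96.3 and 90.3 in TRIM11-KD, 111.7 and 126.8 in KDM5C-KD, and 90.2 and 90.9 in DKD, so KDM5C-KD was highest for both chains. Medians of the 13 genes ran from -0.16 to 0.13. All 9 genes analysed from the list of ATF4 targets, which names ATF4 itself, were higher in KDM5C-KD than in TRIM11-KD. The share of all genes above 0 was not computed. The median was 0.25, and over all genes 0.01. Of the 9 genes 1, SLC3A2, was higher at an unadjusted p under 0.05 by limma, compared with 5.58% of all genes. A part of ATF4 in these levels was not tested. Their medians in the 8 comparisons ran from -0.22 to 0.25.

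Among 10 thioredoxin and peroxiredoxin genes the medians ran from -0.16 to 0.10. TXNIP, which binds and inhibits thioredoxin, was at 95.7 FPKM in Control, 194.9 and 184.9 in TRIM11-KD, 76.5 and 71.3 in KDM5C-KD, and 52.4 and 108.3 in DKD. PRDX4 was at 161.9 FPKM in Control and 80.5 and 90.7 in DKD. PRDX2, another peroxiredoxin, was at 279.2 FPKM in Control and between 178.3 and 240.8 in the knockdown lines.

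The genes most like each member over the 7 lines were sought among 8792 genes with a mean of at least 5 FPKM, by Pearson's r of log2(FPKM + 1). With 7 points that share libraries, such values arise readily among many genes and are given as a description. For NQO1 these were CNOT11 (r = 0.996) and UNC93B1 (0.987), for GCLM RCN1 (0.996) and GOLPH3 (0.981), and for TXNRD1 ARHGEF7 (0.994) and GTF3C3 (0.984). For HMOX1 they were TOR1B (0.971) and METRNL (0.969), for SRXN1 TMEM123 (0.976) and CD44 (0.975), and for GCLC LOC100132352 (0.953) and GTF2IRD1 (0.952). For SLC7A11 they were RBBP6 (0.979) and AASDHPPT (0.976), for FTL CCBE1 (0.969) and SLC6A8 (0.957), and for FTH1 SLC25A24 (0.974) and PON2 (0.971). No member was among the 2 genes most like another.

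In tumors no member was called between the genotypes. None of the 9 met the rule of 1.5-fold and an unadjusted p under 0.05, compared with 3.61% of all 17328 genes analysed, and none was under 0.05 before adjustment, compared with 6.94%. The adjusted threshold was passed by none of them and by 0.00577% of all genes. Adjusted p by limma was between 0.804 and 0.962 for the members. All 9 overlapped between WT and Trim11+/- tumors, whereas 13.4% of all genes did not. Log2 differences ran from -0.21 for Hmox1 to 0.35 for Nqo1, with a median of -0.06. In two-sided exact permutation tests of 3 against 3, which cannot give a p below 0.1, p was between 0.3 and 0.9.

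**Figure D4:**
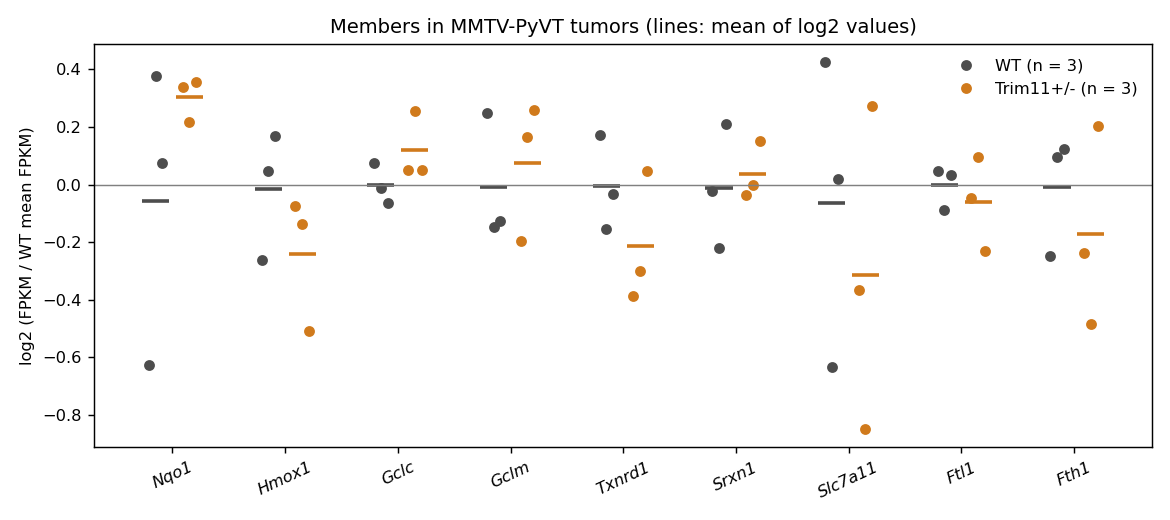
The log2 ratio of FPKM in each tumor to the mean of the 3 WT tumors is plotted for the 9 members, with points for single tumors (grey, WT; orange, Trim11+/-) and short lines for the mean of the log2 values. The genotypes overlap for every member, and Nqo1 in WT 1 and Slc7a11 in both groups lie farthest from the WT mean.

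Nqo1 (ENSMUSG00000003849, mm10 chr8:107388225-107403206) was at 22.2, 44.6 and 36.1 FPKM in the WT tumors and 43.4, 39.9 and 43.9 in the Trim11+/- tumors. WT 1 was the lowest and WT 2 the highest of the 6, and the Trim11+/- tumors lay close together (42.4 ± 2.19, against 34.3 ± 11.3 in WT, SD, n = 3). The log2 difference was 0.35 (SE 0.24). It rested on WT 1, without which the difference was 0.08 (SE 0.13, adjusted p = 0.921 by limma). Without WT 2 it was 0.56 (SE 0.21), and Nqo1 was then the 1 member under an unadjusted p of 0.05, compared with 5.93% of all genes.

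Hmox1 (chr8:75093621-75100589) was at 10.1, 12.5 and 13.6 FPKM in WT and 11.5, 11.0 and 8.5 in Trim11+/- tumors, with 160 to 239 reads per tumor. Txnrd1 (chr10:82833951-82897712) was at 30.1, 24.0 and 26.1 FPKM in WT and 20.4, 21.7 and 27.6 in Trim11+/- tumors. Trim11+/- 3 was the lowest tumor for Hmox1 and the highest of its group for Txnrd1, and without it Txnrd1 was under an unadjusted p of 0.05, as were 8.64% of all genes. The log2 differences were -0.21 (SE 0.16) and -0.20 (SE 0.15).

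Gclc (chr9:77754535-77794485) was at 11.9, 11.2 and 10.8 FPKM in WT and 11.7, 13.5 and 11.7 in Trim11+/- tumors, the narrowest spread of the members along with Ftl1. Gclm (chr3:122245557-122270732) was at 12.7, 9.66 and 9.80 FPKM in WT and 9.34, 12 and 12.8 in Trim11+/- tumors, so each genotype held both high and low tumors. The ratio of Gclc to Gclm was 1.07 ± 0.114 in WT and 1.10 ± 0.172 in Trim11+/- tumors (SD, n = 3, two-sided exact permutation p = 0.9). Srxn1 (chr2:152105516-152111376) was at 7.63, 6.66 and 8.97 FPKM in WT and 7.56, 7.74 and 8.61 in Trim11+/- tumors.

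Slc7a11 (chr3:49892526-50443614) was at 0.749, 0.360 and 0.565 FPKM in WT and 0.433, 0.310 and 0.675 in Trim11+/- tumors, which stood for 38 to 114 reads. Its mean of 0.516 FPKM was just over the filter, and its spread, 2.41 times from lowest to highest, was the widest of the members. The abundant ferritins had 5512 to 6810 reads for Ftl1 and 9025 to 17758 for Fth1.

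Ftl1 (chr7:45457944-45459884) was at 465.1, 423.3 and 460.4 FPKM in WT and 435.5, 480.7 and 382.8 in Trim11+/- tumors. Fth1 (chr19:9980598-9985098) was at 348.1, 442.5 and 450.4 FPKM in WT and 350.6, 295.9 and 476.4 in Trim11+/- tumors. In Trim11+/- 2 Ftl1 was highest and Fth1 lowest of the 6 tumors, and in Trim11+/- 3 the order was the opposite. The ratio of Fth1 to Ftl1 was therefore 0.615 and 1.24 in these tumors of 1 genotype, and 0.924 ± 0.156 in WT against 0.888 ± 0.323 in Trim11+/- tumors (SD, n = 3, two-sided exact permutation p = 0.8). The length used for Fth1 includes introns kept in some transcripts, so the ratio compares tumors and is no ratio of molecules. Named copies summed to at most 1.03% of Ftl1 and 0.234% of Fth1.

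Macrophages, which recycle haem and store iron, and red blood cells are part of the tissue, and fewer cells of a type cannot be told apart from less RNA per cell in bulk tissue. The summed level of 9 macrophage markers was 484.2 to 667.1 FPKM in WT and 440.8 to 529.9 in Trim11+/- tumors, with 7 of them lower in Trim11+/-. Markers of red blood cells summed to 38.0 to 47.8 FPKM in WT and 16.3 to 24.2 in Trim11+/- tumors, without overlap, with 3 of the 5 lower and 2 higher in Trim11+/-. Markers of myoepithelium also did not overlap, at 118.9 to 301.8 and 54.6 to 84.0 FPKM, whereas 5 markers of mammary epithelium summed to 1398 to 1704 and 1320 to 1832 FPKM. T cell markers were near 0, with Cd3e and Cd3d under 0.5 FPKM in every tumor, and skeletal muscle markers ranged from 0.444 to 168.9 FPKM. The part of these cells in the levels of the members was not tested.

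Of 19 other NRF2 targets analysed none met the fold and p rule, and 4 were above 0, with a median of -0.07. Nfe2l2 was at 19.6, 21.1 and 21.1 FPKM in WT and 17.7, 23.5 and 14.6 in Trim11+/- tumors, Keap1 was between 14.6 and 19.1 FPKM, and Bach1 between 6.40 and 8.68. The rule was met by 1 of 17 iron handling genes and 1 of 13 genes of glutathione and ferroptosis, compared with 3.61% of all genes. No gene of the regulator, haem metabolism, thioredoxin or ATF4 lists met it. The first, Steap3, an endosomal iron reductase, was at 10.3, 10.3 and 11.5 FPKM in WT and 8.37, 7.70 and 3.66 in Trim11+/- tumors (log2 difference -0.69, SE 0.27, adjusted p = 0.707 by limma). The second, Acsl4, loads polyunsaturated fatty acids into lipids and favours ferroptosis. It was at 60.1, 101.6 and 98.4 FPKM in WT and 144.0, 120.1 and 133.1 in Trim11+/- tumors (0.64, SE 0.21, adjusted p = 0.671 by limma). Slc3a2 was between 47.2 and 64.1 FPKM, Tfrc between 25.6 and 39.2, Slc40a1 between 2.01 and 3.69 and Gpx4 between 156.7 and 199.2. Medians of the regulators, iron handling, haem metabolism, glutathione, thioredoxin and ATF4 lists were between -0.03 and 0.03.

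Over the 6 tumors the genes most like each member were sought among 9491 genes with a mean of at least 5 FPKM, again as a description. They were Slc44a3 and Rab12 for Nqo1 (r = 0.992 and 0.984), Il4ra and Ehd4 for Hmox1 (0.989 and 0.988), and Traf3 and Gm44729 for Gclm (0.997 and 0.992). For Gclc they were Ep300 and Zbtb48 (0.989 and 0.988), for Txnrd1 Gm13623 and Vipas39 (0.994 and 0.992), and for Srxn1 Rps23-ps1 and Mir1957b (0.965 each). For Slc7a11 they were Fbxo5 and Gm7964 (0.993 each), for Ftl1 Plbd2 and Chd4 (0.988 each), and for Fth1 Lyplal1 and Endov (0.993 and 0.991). No gene was listed for the same member in cells and tumors.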

How the data were processed

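RNA-Seq libraries were poly(A)-selected and not stranded. Per the study's methods, reads of 7 cell lines and 6 tumors were checked with FastQC, trimmed with Cutadapt, mapped with HISAT2 to hg19 or mm10, and quantified with Cufflinks, and the authors deposited FPKM values, 1 table for each species. In tumors these were whole reads over gene length and library total, and 98.7% to 98.8% of the values tested came within 0.01 of a whole read. The depth of the cell line libraries is unknown, so no counting error is given for them, and the read totals limit the precision in tumors. Of rows with 1 symbol the highest was kept, and 27 human symbols turned into dates were left out. Genes with a mean of at least 0.5 FPKM were analysed, 12636 in cell lines and 17328 in tumors.

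Tests used log2(FPKM + 1) in limma 3.58.1 (R 4.3.3, eBayes with a trend, Benjamini-Hochberg adjustment) and exact permutation in scipy 1.17.1 (Python 3.11.15, numpy 2.4.6, pandas 2.3.3, with figures by matplotlib 3.10.9). The limma fits were run on simulated data for tumors, the KDM5C guide, KDM5C-KD against TRIM11-KD and DKD against KDM5C-KD. The TRIM11 guide, DKD against TRIM11-KD, the interaction and the fit against Control were not checked in this way. Tumors were called at 1.5-fold and an unadjusted p under 0.05, knockdowns and guides at an adjusted p under 0.05, and ratios to Control at 1.5 in both lines. The members and gene lists (NRF2 regulators, other NRF2 targets, aldo-keto reductases, iron handling, haem metabolism, glutathione and ferroptosis, thioredoxin and peroxiredoxin, ATF4 targets, and cell type markers) were chosen with earlier results of these data known. From each list up to 3 genes called in a comparison, with a mean of at least 5 FPKM and the largest differences, were named, with NFE2L2, KEAP1, BACH1, SLC3A2, TFRC, SLC40A1 and GPX4 always; genes named without values were named to account for a count. Alternatives covered pseudocounts, filters, scaling, the fit, the replicate number as a block and each library left out.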

Additional observations from a re-analysis of the deposited data

Results flagged for a closer look

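Beside the members, 3 genes of the lists were flagged for moving against Control in opposite directions in both lines of different knockdowns. This compares directions with a single Control library and no test. The flag did not cover every such gene. SLC3A2 was also below Control in both TRIM11-KD lines and above it in both KDM5C-KD lines, with a smaller difference between them (0.35, SE 0.11, by limma). AKR1C1 was above Control in both TRIM11-KD lines and below it in both KDM5C-KD lines, a gap of 4.98 between the mean log2 ratios, and it was below in KDM5C-KD and above in DKD, a gap of -4.28. The size of both gaps rests largely on KDM5C-KD2, at 0.123 FPKM, beside 5.42 in KDM5C-KD1 and 11.5 in Control. AKR1C3 had gaps of 4.56 between TRIM11-KD and KDM5C-KD and of -4.52 between KDM5C-KD and DKD, and rests on KDM5C-KD2, since KDM5C-KD1 was at 29.2 FPKM beside 29.5 in Control. TXNIP had a gap of 1.36 between TRIM11-KD and KDM5C-KD. In limma over the 6 knockdown lines, KDM5C-KD against TRIM11-KD differed by -3.32 (SE 0.78) for AKR1C1, -3.69 (SE 1.26) for AKR1C3 and -1.35 (SE 0.31) for TXNIP, and the adjusted p was 0.494 for each.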

How the results depend on the processing

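Of 1534 recomputed values, 1350 kept their direction and side of the threshold, or for counts stayed within 1.5 times. Another 136 moved and 48 changed sign. Some of the 1350 could not change direction, so their number is no measure of robustness. By design, the filter, the eBayes trend, the block and the fit of 4 groups leave a member's log2 difference between knockdowns as it was. For NQO1 in KDM5C-KD against TRIM11-KD it was -0.46 in the main fit, without the trend and under the block. Leaving out a line of a knockdown not compared also leaves such a difference unchanged. No alternative run gave a member past the adjusted threshold or, in tumors, past the fold and p rule. The causes of the changes were not tested.

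Against Control, a fold of 2 left 0 members in TRIM11-KD and 0 in KDM5C-KD, where 1.12% and 2.07% of all genes passed. The mean of both lines gave 7 members in TRIM11-KD and 5 in DKD, where 6.65% and 9.84% of all genes passed. The fit of 4 groups by limma, chosen after the data were seen, gave 0 members past the adjusted threshold in TRIM11-KD, 0 in KDM5C-KD and 0 in DKD. Without TRIM11-KD2 or TRIM11-KD1 the count by ratio in TRIM11-KD was 4 or 8, where 5.52% or 8.71% of all genes passed. Without KDM5C-KD1 or KDM5C-KD2 it was 3 or 6 in KDM5C-KD, where 11.5% or 8.15% of all genes passed.

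Over libraries left out, counts of members at an unadjusted p under 0.05 ran from 2 to 5 for the TRIM11 guide, 0 to 2 for the KDM5C guide and 0 to 1 in tumors. The shares of all genes ran from 5.8% to 13.1%, from 5.85% to 11.7% and from 5.05% to 8.64%. Between knockdowns, a line left out leaves its knockdown with 1 line, so no range of counts is given there. Testing any gene with a mean above 0 gave 0 members for KDM5C-KD against TRIM11-KD and 1 for DKD against KDM5C-KD, where 8.88% and 9.91% of all genes passed. The interaction model gave 2 members higher with the KDM5C guide (SLC7A11 and FTH1), compared with 5.86% of all genes in that direction. Leaving out both lines of TRIM11 guide 1 was chosen after the data were seen. It leaves DKD and TRIM11-KD with 1 line each, so log2 differences between knockdowns are given for it below.

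With the replicate number as a block the counts were 2 for KDM5C-KD against TRIM11-KD, 4 for DKD against KDM5C-KD and 1 for DKD against TRIM11-KD, and 0 in tumors. Deviations of libraries with the same number correlated at -0.33, 0.0385 and -0.13 in tumors and at 0.088, 0.273 and 0.371 in the 3 comparisons of cell lines. With 2 lines per knockdown both pairs give the same value, so this check carries little. The numbers were not taken as a pairing in the main fits. DKD and TRIM11-KD lines with the same number do share a TRIM11 guide, so the main fit of these knockdowns ignores a pairing by guide. The member counted there under the block was FTL. All genes at an unadjusted p under 0.05 went from 888 to 1538 for DKD against TRIM11-KD, from 1241 to 1975 for KDM5C-KD against TRIM11-KD and from 1473 to 2163 for DKD against KDM5C-KD under the block.

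Small log2 differences changed sign. Over libraries left out, DKD against TRIM11-KD ran from -0.32 to 0.17 for HMOX1, -0.03 to 0.20 for GCLC, -0.08 to 0.20 for GCLM, -0.17 to 0.20 for TXNRD1 and -0.05 to 0.25 for FTH1. KDM5C-KD against TRIM11-KD ran from -0.93 to 0.01 for NQO1 and -0.09 to 0.23 for GCLC, and DKD against KDM5C-KD from -0.14 to 0.18 for GCLC. The KDM5C guide ran from -0.07 to 0.17 for HMOX1, -0.13 to 0.07 for SRXN1, -0.17 to 0.31 for SLC7A11 and -0.32 to 0.32 for FTL, and the TRIM11 guide from -0.40 to 0.13 for SLC7A11, -0.46 to 0.18 for FTL and -0.34 to 0.22 for FTH1. Tumors ran from -0.01 to 0.20 for Gclm, -0.05 to 0.14 for Srxn1, -0.18 to 0.01 for Slc7a11 and -0.14 to 0.03 for Ftl1, and the log2 ratio of Fth1 to Ftl1 from -0.38 to 0.13 and of Gclc to Gclm from -0.06 to 0.16.

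Without both lines of TRIM11 guide 1, DKD against TRIM11-KD was -0.06 for GCLC and GCLM, -0.17 for TXNRD1 and -0.10 for FTH1, DKD against KDM5C-KD was -0.10 for GCLC (and -0.0 with equal total FPKM), the KDM5C guide was -0.02 for HMOX1, and the TRIM11 guide 0.02 for SLC7A11 and 0.17 for FTL. With the interaction the KDM5C guide was 0.01 for SRXN1, and the TRIM11 guide 0.08 for SLC7A11 and 0.04 for FTL.

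With 1 Control library and 2 lines per knockdown, each with its own guide, a difference between guides and a difference between knockdowns cannot be fully told apart. Depth limits Slc7a11 in tumors, at 38 to 114 reads.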
